A study of Danio rerio with 6 samples.

Results

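The aryl hydrocarbon receptor genes, the genes of their repressors, the CYP1 enzyme genes and the forkhead factor gene foxq1a form a set of 10 genes, looked up by name among the 32053 rows of each count table. All 10 names were found, each on a single row, and all 10 passed the filter on low counts. The RNA came from 5-day-old zebrafish embryos (5 days past fertilization), from dissected tissue labelled intestinal. The exposed group, BP-3, had 3 libraries from embryos kept in 2 mg/L BP-3. The labels give only this abbreviation, by which the sunscreen agent benzophenone-3 is usually meant. The WT group had 3 libraries from unexposed embryos, labelled control. The sources used here do not give the solvent, the start and length of the exposure, the number of embryos behind a library, or a strain beyond zebrafish. Titles and the protocol name BP-3 for all exposed libraries, but the treatment fields differ, reading BP-3 for replicate 1, BP-4 for replicate 2 and BP-5 for replicate 3.

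The receptor is a transcription factor of the bHLH-PAS family that waits in the cytosol with Hsp90 and co-chaperones. Once it binds a planar aromatic ligand it enters the nucleus, pairs with Arnt and switches on a battery of genes, of which the CYP1 monooxygenases are the classic readout. Ahr repressors are induced by the receptor and compete with it for Arnt, closing a feedback loop. In zebrafish, ahr2 encodes the receptor through which dioxin acts in embryos, ahr1b encodes a second receptor that binds ligand, and the product of ahr1a binds dioxin poorly. Liver, gut epithelium and vessel lining are sites of cyp1a induction in fish.

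Total counts lay between 24000785 and 41726516 in BP-3 libraries and between 23567603 and 36961866 in WT libraries. Values are given as CPM, counts relative to library size after scaling for library composition, and levels of different genes are not ranked because no transcript lengths were used. Both replicate 3 libraries were the shallowest of their group and stood apart from replicates 1 and 2 on the second principal component (25.7% of variance). All 13 enterocyte markers were detected, and so were markers of liver, eye, neurons, cartilage and vessels, so the tissue was not intestine alone. In such bulk RNA, fewer cells of a type and less RNA per cell cannot be told apart.

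Of the 10 genes, cyp1a rose and foxq1a fell after exposure, while 8 did not pass the test. The test was edgeR's quasi-likelihood test with p-values adjusted over 23167 tested rows (Benjamini-Hochberg, threshold 0.05), by which 10.6% of rows passed, 6.26% higher and 4.29% lower in BP-3. Read against that share, 2 of 10 called, 1 in each direction, is not a result about the set as a whole. Values of the 2 groups did not overlap for 6 of the 10 genes, higher in BP-3 for 4 and lower for 2, where over all tested rows the groups were apart in 31%, with 16.1% higher and 14.9% lower. The 4 that were higher were the 4 CYP1 genes. When the replicate number was used as a block, ahr1b and cyp1b1 passed as well, and 21.7% of rows did. The median log2 fold change of the 10 genes was 0.07, against -0.001 over all tested rows.

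**Figure D1:**
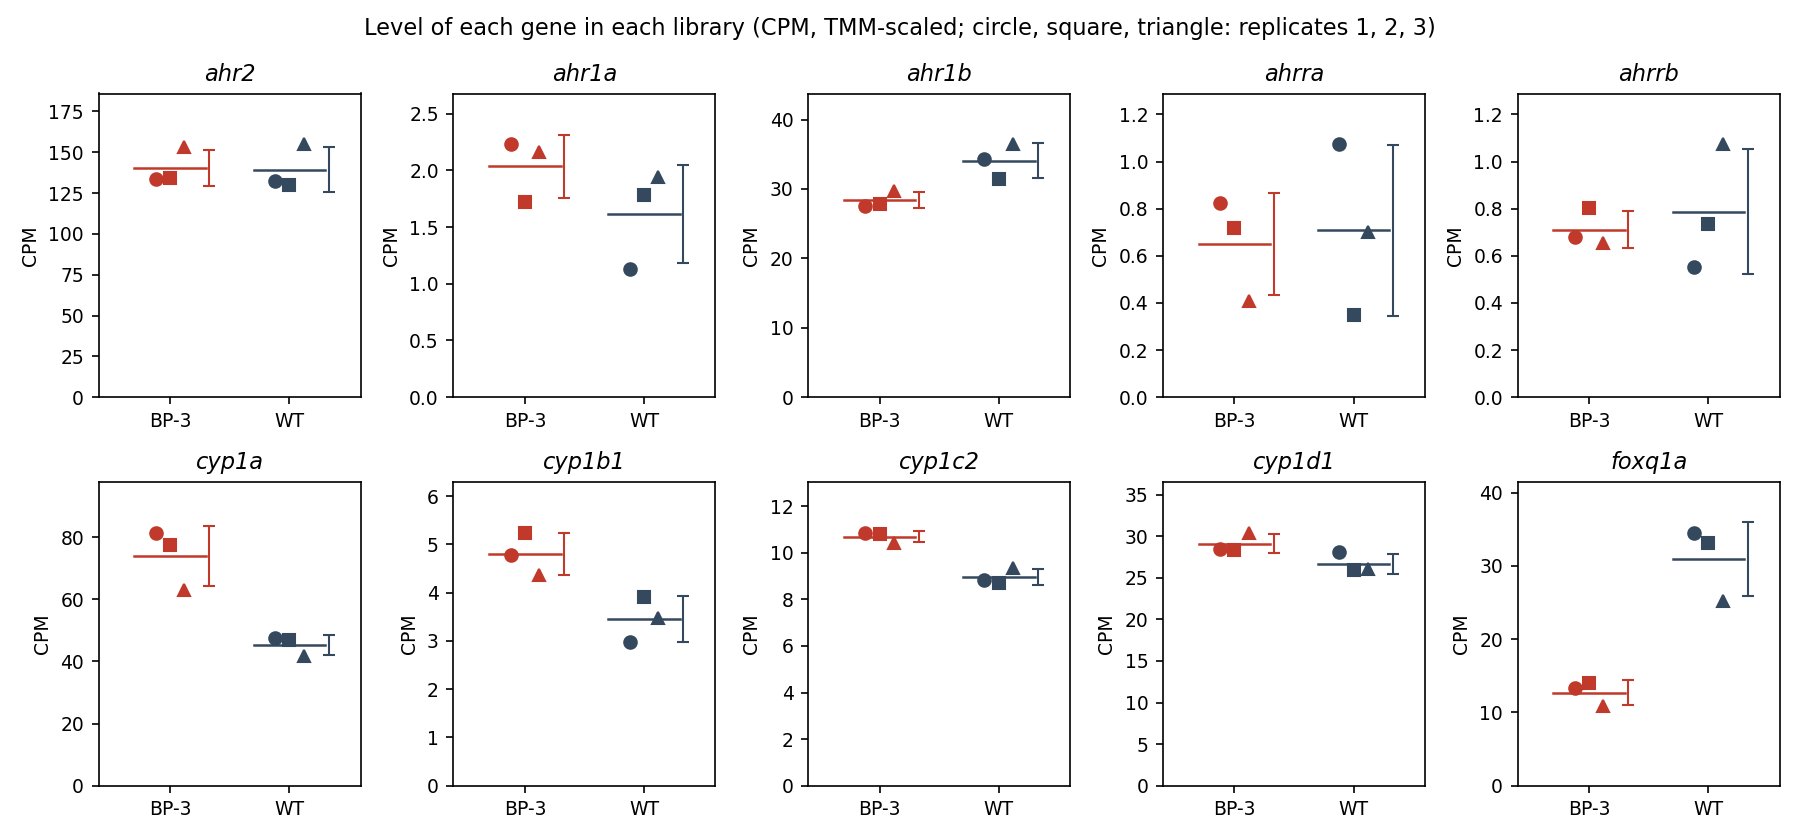
Level of each of the 10 genes in each library, in CPM on a linear axis from 0, with BP-3 libraries in red and WT libraries in dark blue. Horizontal lines are means of 3 libraries, bars are SD, and symbols mark replicates 1 to 3. The groups are apart for the 4 CYP1 genes, ahr1b and foxq1a and overlap for ahr2, ahr1a, ahrra and ahrrb.

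Among the receptors, ahr2 showed no detectable difference. It had 134, 134 and 153 CPM in BP-3 replicates 1 to 3, against 132, 130 and 155 CPM in WT replicates 1 to 3. Both replicate 3 libraries were the high ones, and the groups overlapped almost completely. The log2 fold change was 0.01 ± 0.09 (SE), and its 95% interval ran from 0.879-fold to 1.16-fold (edgeR adjusted p = 0.95). The interval did not reach a 1.5-fold change in either direction.

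Expression of ahr1b was at 27.6, 27.9 and 29.7 CPM in BP-3 replicates 1 to 3 and at 34.3, 31.4 and 36.5 CPM in WT replicates 1 to 3. Every BP-3 library lay below every WT library, yet the log2 fold change of -0.26 ± 0.08 (SE) missed the threshold (edgeR adjusted p = 0.0651). With the replicate number as a block it passed, at -0.26 ± 0.06 (SE, edgeR adjusted p = 0.0152). In the RefSeq table (GRCz12tu) ahr1b and ahr2 are adjacent coding genes, and the next coding gene past ahr2 with a row in the count tables, cntnap5b, fell by 0.30 ± 0.08 (SE) on the log2 scale (edgeR adjusted p = 0.045). On the other side of ahr1b, the nearest such gene, mfsd6a, had a log2 fold change of the opposite sign, 0.21 ± 0.12 (SE), and did not pass (edgeR adjusted p = 0.308). These neighbours were looked up after the members' values were seen.

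The third receptor gene, ahr1a, was scarce, with 92, 60 and 53 counts in BP-3 libraries and 41, 51 and 47 counts in WT libraries. That is 2.23, 1.72 and 2.16 CPM in BP-3 replicates 1 to 3, against 1.13, 1.78 and 1.94 CPM in WT replicates 1 to 3. WT replicate 1 was the low library, and the groups overlapped. Its fitted log2 fold change was 0.35 ± 0.26 (SE), with a 95% interval of 0.857-fold to 1.9-fold (edgeR adjusted p = 0.434).

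The repressor genes ahrra and ahrrb were near the limit of what this depth can measure. The reads of ahrra numbered 34, 25 and 10 in the BP-3 libraries, against 39, 10 and 17 in the WT libraries, in replicate order. The exact 95% Poisson interval of a count of 10 runs from 4.8 to 18.4, and such intervals cover counting error only. The spread among WT libraries, from 0.35 to 1.07 CPM, contained all 3 BP-3 values, which ran from 0.408 to 0.825 CPM. The log2 fold change of ahrra was -0.11 ± 0.44 (SE), with a 95% interval of 0.468-fold to 1.82-fold (edgeR adjusted p = 0.904). Reads of ahrrb numbered 28, 28 and 16 in the BP-3 libraries, against 20, 21 and 26 in the WT libraries. Its groups overlapped too, with a log2 fold change of -0.11 ± 0.34 (SE) and a 95% interval of 0.544-fold to 1.58-fold (edgeR adjusted p = 0.878). Neither interval excluded a 1.5-fold difference, up or down.

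The enzyme gene cyp1a, which encodes the monooxygenase most used as a marker of receptor activation in fish, rose 1.63-fold. It had 81.5, 77.4 and 63.0 CPM in BP-3 replicates 1 to 3, against 47.6, 47.0 and 41.7 CPM in WT replicates 1 to 3. In both groups replicate 3 was lowest, and the lowest BP-3 library lay well above the highest WT library. On the log2 scale the rise was 0.70 ± 0.10 (SE), with a 95% interval of 1.39-fold to 1.91-fold (edgeR adjusted p = 0.00243). Across the tested rows, 5.25% had an absolute log2 fold change at least as large, and 753 of 23167 had a rise as large, cyp1a included.

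Expression of cyp1b1, an enzyme that handles steroids and retinoids as well as aromatic pollutants, was at 4.78, 5.24 and 4.37 CPM in BP-3 replicates 1 to 3 and at 2.98, 3.92 and 3.47 CPM in WT replicates 1 to 3. All BP-3 libraries lay above all WT libraries, with counts of 107 to 197 in BP-3 and 84 to 112 in WT behind them. A log2 fold change of 0.48 ± 0.16 (SE) did not pass (edgeR adjusted p = 0.0861), but it did with the replicate block, narrowly, at 0.49 ± 0.15 (SE, edgeR adjusted p = 0.0488).

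The gene cyp1c2, of a CYP1 subfamily that mammals lack, had 10.9, 10.8 and 10.4 CPM in BP-3 replicates 1 to 3, against 8.84, 8.71 and 9.33 CPM in WT replicates 1 to 3. The groups were apart with little spread within either, and the difference was small, at a log2 fold change of 0.26 ± 0.10 (SE, edgeR adjusted p = 0.13). Its tandem neighbour cyp1c1 was not analysed here, and how the authors' counting treated reads shared by such close copies is not given in the sources used here.

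For cyp1d1, a CYP1 gene that is a pseudogene in humans and that dioxin is not known to induce in zebrafish, the values were 28.5, 28.4 and 30.4 CPM in BP-3 replicates 1 to 3 and 28.1, 25.9 and 26.1 CPM in WT replicates 1 to 3. The lowest BP-3 library was only just above the highest WT library. Its log2 fold change was 0.12 ± 0.07 (SE), with a 95% interval of 0.971-fold to 1.22-fold (edgeR adjusted p = 0.337). By size of the fitted fold change the order of the 4 CYP1 genes was cyp1a, cyp1b1, cyp1c2 and cyp1d1. The intervals of neighbours in that order overlap, and the differences between the genes were not tested.

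**Figure D2:**
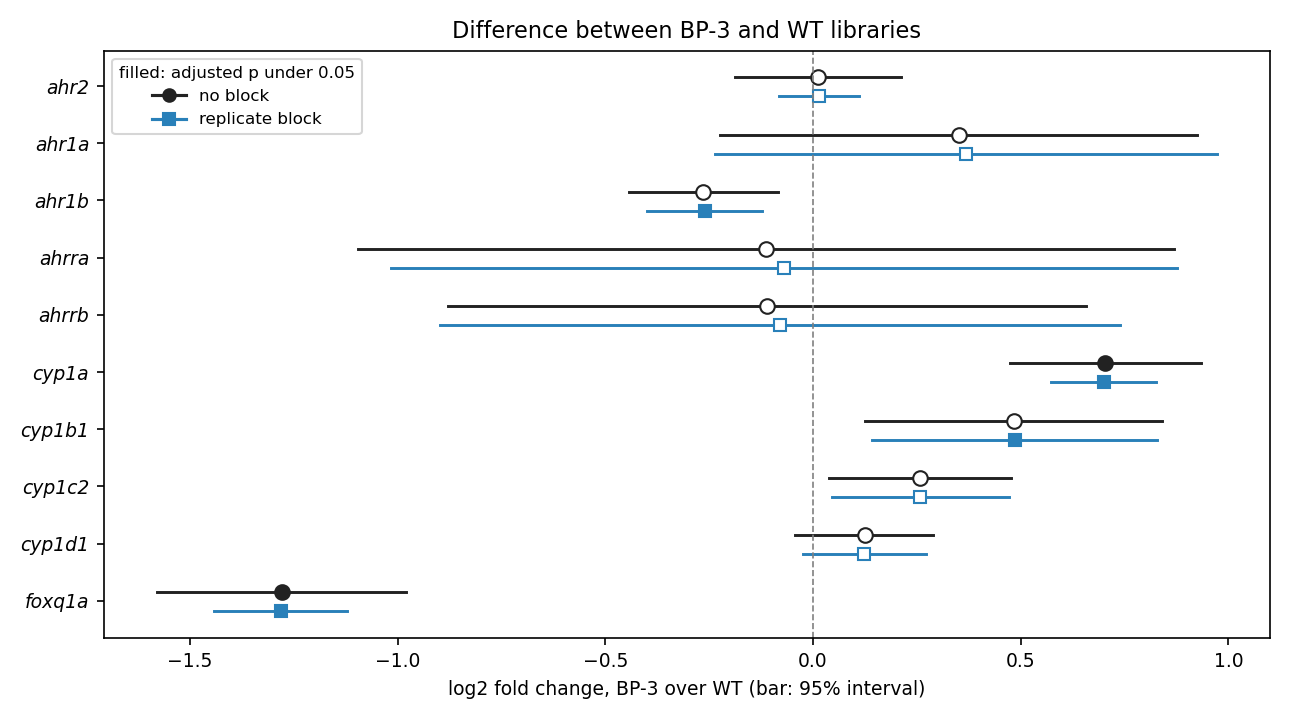
Log2 fold change of BP-3 over WT for each gene with its 95% interval, from edgeR without (black circles) and with (blue squares) the replicate block. Filled symbols passed an adjusted p of 0.05. Only cyp1a and foxq1a are filled in both, and the widest intervals are those of ahrra, ahrrb and ahr1a.

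Most liver markers moved with cyp1a. Over all tested rows 6.26% were called higher and 4.29% lower. Of 15 hepatocyte markers, 9 rose and 1 fell, and none was at 0. The 1 that fell was ahsg1, with 12.1 ± 1.09 CPM in BP-3 and 21.4 ± 2.96 CPM in WT (SD, n = 3 each). The 5 that did not pass were cp, hpda, fga, fgg and serpina1. The summed level of all 15 ran from 4353 to 4788 CPM in BP-3 and from 2794 to 3105 CPM in WT, a ratio of means of 1.54. The transferrin gene tfa made up much of that sum, with 1918 ± 111 CPM in BP-3 and 928 ± 44.6 CPM in WT (SD, n = 3 each), and fabp10a, the liver fatty acid binding gene, rose to 533 ± 58.4 CPM in BP-3, against 409 ± 40.2 CPM in WT (SD, n = 3 each). Per 100 CPM of the hepatocyte sum, cyp1a had 1.74, 1.62 and 1.45 CPM in BP-3 replicates 1 to 3 and 1.53, 1.52 and 1.49 CPM in WT replicates 1 to 3. On that scale the groups overlapped, with a ratio of means of 1.06. Without tfa, left out after its value was seen, the sum ran from 2547 to 2764 CPM in BP-3 and from 1918 to 2148 CPM in WT. Per 100 CPM of those 14 markers cyp1a lay between 2.47 and 2.95 CPM in BP-3 and between 2.17 and 2.21 CPM in WT, groups that did not overlap, with a ratio of 1.25.

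Markers of the gut lining and of vessels, the other tissues in which fish cyp1a is induced, differed less in their sums. Their counts stand beside the same shares of all tested rows, 6.26% higher and 4.29% lower. Of 13 enterocyte markers, 5 rose and 1 fell, with none at 0. The 1 that fell was mep1b, with a log2 fold change of -1.304 ± 0.135 (SE), larger in size than that of any hepatocyte marker. The 5 that rose did so by 1.24-fold (cdh17) to 1.45-fold (mep1a.1). The sum of the 13 was 4399 to 4834 CPM in BP-3 and 3741 to 4168 CPM in WT. Much of it came from chia.2 and fabp2, neither of which passed. Mean levels of chia.2 were 1837 CPM in BP-3 and 1640 CPM in WT, and those of fabp2 were 953 and 792 CPM. Relative to the sum of all 13, cyp1a was 1.4 times as high in BP-3 as in WT, with groups apart. Of 13 endothelium markers, 1 rose and 0 fell, with a sum of 308.5 to 319.3 CPM in BP-3 and 275.1 to 283.3 CPM in WT, and cyp1a relative to it was 1.44 times as high in BP-3. How much of the cyp1a rise goes with tissue share was not tested.

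**Figure D3:**
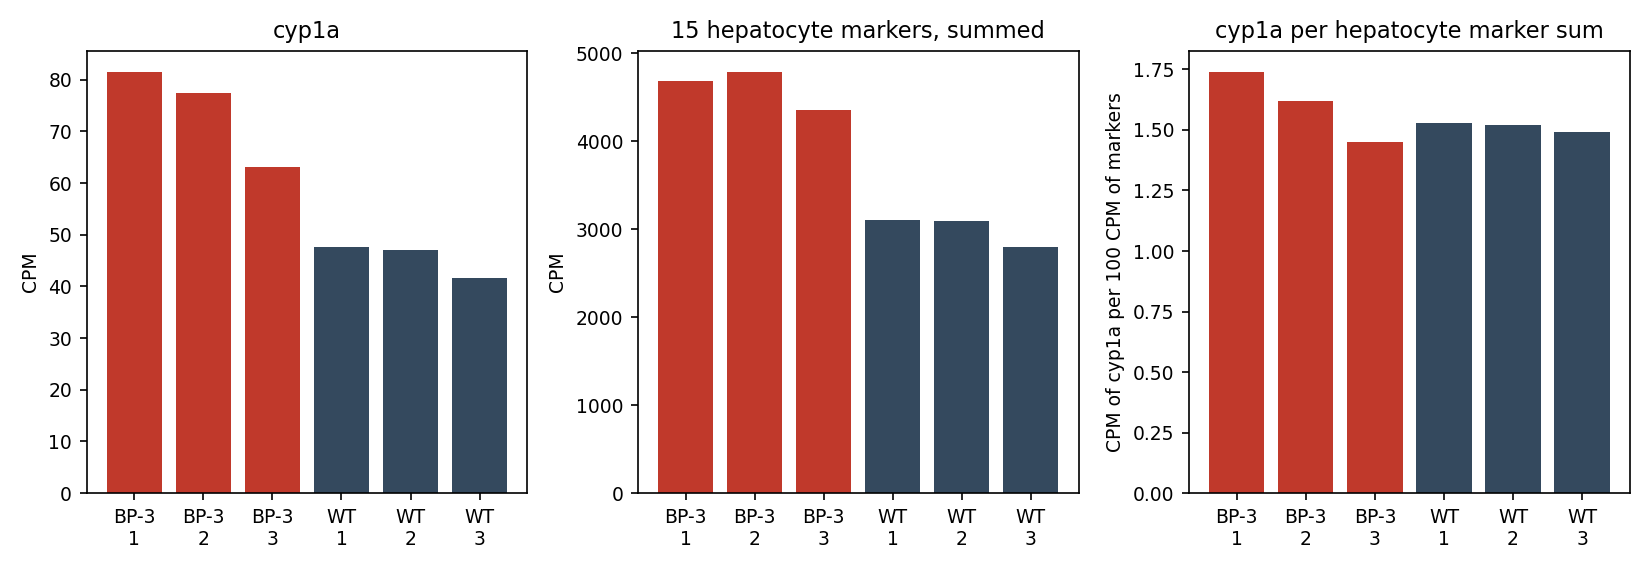
Level of cyp1a (CPM), summed level of the 15 hepatocyte markers (CPM) and cyp1a per 100 CPM of those markers, 1 bar per library, BP-3 in red and WT in dark blue. The first 2 panels separate the groups, and in the third BP-3 replicate 3, at 1.45, lies below all WT libraries. The sum without tfa is not drawn. Per 100 CPM of that sum the cyp1a values of the groups did not overlap, with a ratio of means of 1.25.

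Over the 6 libraries, the rows whose profile was closest to that of cyp1a were fbp2, slc35d1b, sgk2b, sult2st1 and them4, among 15287 rows compared. Closeness was the root-mean-square difference of centred log2 CPM, which was 0.0257 for fbp2 and 0.0494 for them4. Of these, fbp2 encodes a fructose bisphosphatase of gluconeogenesis and sult2st1 a sulfotransferase of steroids. Levels of fbp2 were 59.4 CPM in BP-3 and 36.3 CPM in WT, and those of sult2st1 were 35.2 CPM in BP-3 and 21.3 CPM in WT. The likeness includes the difference between the groups that cyp1a itself shows.

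The forkhead gene foxq1a, a close relative of foxq1b, which dioxin raises in the jaw of zebrafish embryos, went the other way and fell 2.43-fold. It had 13.3, 14.0 and 10.8 CPM in BP-3 replicates 1 to 3, against 34.5, 33.1 and 25.1 CPM in WT replicates 1 to 3. Replicate 3 was lowest in both groups, and all BP-3 libraries lay far below all WT libraries. Its log2 fold change was -1.28 ± 0.14 (SE), with BP-3 at 0.412 times WT and a 95% interval of 0.334 to 0.507 times (edgeR adjusted p = 0.000381). Of 23167 tested rows, 83 had a fall as large, foxq1a included. The gene foxq1b itself did not pass, with 22.2 ± 2.72 CPM in BP-3 and 29.3 ± 4.53 CPM in WT (SD, n = 3 each; edgeR adjusted p = 0.0722).

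The rows most like foxq1a over the 6 libraries were gadd45ba, ier2b, ier2a, dusp1 and gpr186. The first 4 are stress and early response genes: gadd45ba encodes a growth arrest factor, ier2a and ier2b encode immediate early nuclear proteins, and dusp1 a phosphatase that switches off MAP kinases. The root-mean-square difference to gadd45ba was 0.0323 on the log2 scale, and gadd45ba had 24.8 CPM in BP-3 and 61.5 CPM in WT. The next, ier2b, differed from foxq1a by 0.0841 and had 10.9 CPM in BP-3 and 28.9 CPM in WT. The farthest of the 5, gpr186, was at 0.112. As for cyp1a, the likeness includes the difference between the groups that foxq1a itself shows.

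In the RefSeq table the coding genes beside foxq1a are foxf2a and irf4a, and neither passed. The log2 fold change of foxf2a, another forkhead gene, was 0.26 ± 0.11 (SE), opposite in sign to that of foxq1a (edgeR adjusted p = 0.19), and that of irf4a was -0.64 ± 0.35 (SE, edgeR adjusted p = 0.285). For the marker counts that follow, the shares of all tested rows were again 6.26% higher and 4.29% lower. Of 10 cartilage markers 0 rose and 1 fell, with the summed level in BP-3 at 0.925 times that in WT. Of 10 neuron markers 0 rose and 1 fell, at 0.867 times WT. Of 12 retina and lens markers 0 rose and 3 fell, at 0.888 times WT, with sums that overlapped between the groups. The 3 that fell were the lens genes cryaa, crybb1 and mipa, and no retinal marker passed. Relative to each of the 6 marker sums the BP-3 and WT values of foxq1a stayed apart, with BP-3 at 0.268 to 0.472 times WT. The sums themselves differed less between the groups than foxq1a did, with BP-3 at 0.867 to 1.54 times WT. The retina and lens sum holds genes of both tissues, and no sum of lens genes alone was formed. Among the lens genes, cryaa was at 0.464, crybb1 at 0.549 and mipa at 0.711 times WT, where foxq1a was at 0.412 times. The lens genes cryba4 and lim2.1, at 0.729 and 0.7175 times WT, did not pass. How much of the foxq1a fall goes with tissue share was not tested.

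**Figure D4:**
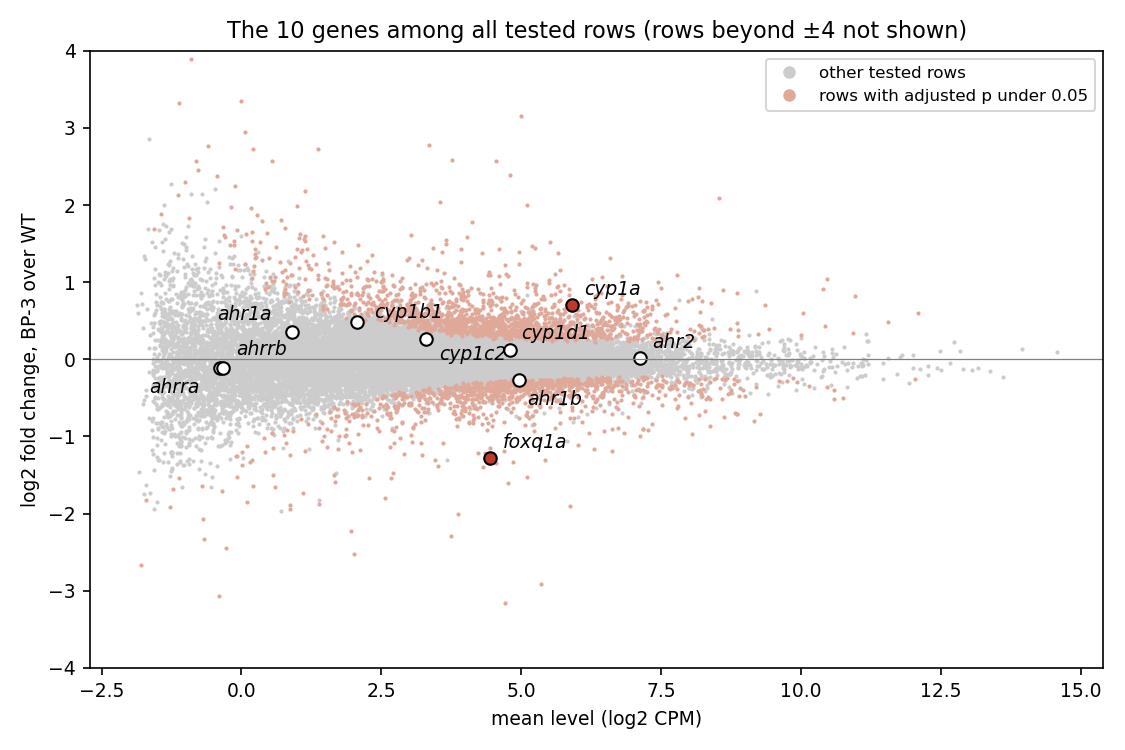
Log2 fold change of BP-3 over WT against mean level (log2 CPM) for all tested rows, with the 10 genes as circles, filled where the adjusted p was under 0.05. The 9 rows beyond an absolute log2 fold change of 4 are not drawn. Rows at the level of ahrra and ahrrb scatter widely. Over all levels, 5.25% of tested rows had an absolute log2 fold change at least as large as that of cyp1a. For foxq1a the share was 0.95%.

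Other genes that the receptor is known to raise in fish or mammals were mixed. Of 15 tested, 5 rose and 1 fell, where 6.26% of all tested rows were called higher and 4.29% lower. The list's median log2 fold change was 0.19 where that of all tested rows was -0.001. This list was chosen with earlier results of these data known, so neither contrast is a test of it. Those that rose were led by the glucuronosyltransferase gene ugt1a2, with 197 ± 8.43 CPM in BP-3 and 125 ± 6.44 CPM in WT, and by the glutathione transferase gene gstp2, with 33.7 ± 4.89 CPM in BP-3 and 19.4 ± 2.75 CPM in WT (SD, n = 3 each). The Nrf2 paralogue gene nfe2l2b rose by 0.52 ± 0.11 (SE) on the log2 scale. The others were ugt1b1 and the quinone reductase gene nqo1. Genes of glucuronidation and glutathione transfer, and nqo1, also answer to other regulators of xenobiotic and oxidative stress. The carrier gene slc16a9a fell to 10.7 ± 0.697 CPM in BP-3, against 17.1 ± 1.27 CPM in WT (SD, n = 3 each). By contrast tiparp, a receptor target whose product restrains the receptor, had 22.1 ± 1.84 CPM in BP-3 and 22.7 ± 1.89 CPM in WT (SD, n = 3 each; edgeR adjusted p = 0.84). The sulfotransferase gene sult6b1, which aromatic pollutants raise in zebrafish embryos, had 98.5 ± 7.74 CPM in BP-3 and 98.2 ± 9.09 CPM in WT (SD, n = 3 each; edgeR adjusted p = 0.982). The hepatocyte markers, 9 of 15 higher, moved with the genes of this list that rose, and their part was not tested.

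Of 14 partners and chaperones of the receptor, 4 rose and 0 fell, where 6.26% of all tested rows were called higher and 4.29% lower. The list's median log2 fold change was -0.06. The 4 that rose were all chaperones: the inducible Hsp90 genes hsp90aa1.1 and hsp90aa1.2, with log2 fold changes of 0.94 ± 0.07 and 0.74 ± 0.08 (SE), and the p23 co-chaperone genes ptges3a and ptges3b, with 0.65 ± 0.07 and 0.54 ± 0.10 (SE). The split of reads between close copies such as hsp90aa1.1 and hsp90aa1.2 is uncertain. The constitutive Hsp90 gene hsp90ab1 did not pass, with 2587 ± 62.1 CPM in BP-3 and 3088 ± 206 CPM in WT (SD, n = 3 each). Neither did aip, the receptor's own co-chaperone, with 62.0 ± 5.16 CPM in BP-3 and 54.2 ± 3.95 CPM in WT (SD, n = 3 each). The dimer partner genes arnt and arnt2 had log2 fold changes of 0.18 ± 0.10 and -0.25 ± 0.09 (SE), neither past the threshold. For hsp90ab1, arnt2, cul4b, ncoa2 and ncoa3 every BP-3 library lay below every WT library, as in 14.9% of all tested rows. None of these passed (edgeR adjusted p from 0.0645 for hsp90ab1 to 0.166 for cul4b). The 4 that rose were apart in the other direction, as were 16.1% of all tested rows.

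Of 15 genes of electron transfer to P450 enzymes, haem synthesis and haem breakdown, 8 rose and 0 fell, with a median log2 fold change of 0.37. Over all tested rows 6.26% were called higher. The list was chosen with earlier results of these data known, so setting its count beside that share is not a test. The 8 that rose include cyb5r2 and cyb5b, of the cytochrome b5 system, with log2 fold changes of 1.08 ± 0.08 and 0.91 ± 0.08 (SE). In the same system cyb5a rose by 0.70 ± 0.08 (SE), while cyb5r3 did not pass, at 0.046 ± 0.085 (SE, edgeR adjusted p = 0.784). The reductase gene por and the haem gene hmbs were not analysed here, so electron transfer was covered by the cytochrome b5 system alone. Also among the 8 was alas1, the first enzyme of haem synthesis outside red cells, with 102 ± 7.6 CPM in BP-3 and 59.0 ± 7.48 CPM in WT (SD, n = 3 each). The red cell form alas2 rose too, by 0.83 ± 0.08 (SE) on the log2 scale. The haem synthesis genes alad, cpox, ppox and uros and the breakdown genes hmox2a and hmox2b did not pass. Of these, uros and hmox2a had negative log2 fold changes, -0.220 ± 0.083 and -0.195 ± 0.075 (SE), and the others had positive ones. Liver markers moved with this list as they did with cyp1a, and their part in it was not tested. No list of red cell markers was formed, so the part of red cells was not tested either.

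Of 15 genes of tryptophan breakdown and serotonin synthesis, pathways that yield kynurenine and indole ligands of the receptor, 4 rose and 0 fell (median log2 fold change 0.19). Beside this count and the next, 6.26% of all tested rows were called higher and 4.29% lower. The rate-limiting liver enzyme gene tdo2a had 64.6 ± 1.47 CPM in BP-3 and 50.5 ± 3.63 CPM in WT, and haao had 47.8 ± 4.79 CPM in BP-3 and 35.8 ± 3.06 CPM in WT (SD, n = 3 each), both past the threshold. The others that rose were mao and tph1b, and ido1 did not pass (edgeR adjusted p = 0.436). Neither did tdo2b, the paralogue of tdo2a, with 20.3 ± 1.12 CPM in BP-3 and 20.4 ± 1.86 CPM in WT (SD, n = 3 each, edgeR adjusted p = 0.981). Of 17 other xenobiotic-sensing receptors and partners, 3 rose and 1 fell. The pregnane X receptor gene nr1i2 rose 1.53-fold, to 32.6 ± 1.67 CPM in BP-3, against 21.3 ± 2.84 CPM in WT (SD, n = 3 each). The retinoid X receptor gene rxrab and pparda also rose, by 0.96 ± 0.18 and 0.64 ± 0.17 (SE) on the log2 scale, and pparaa fell by 0.40 ± 0.11 (SE).

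Of 17 other bHLH-PAS genes, relatives of the receptors by their protein domains, 2 rose and 2 fell, with a median log2 fold change of -0.08. Among all tested rows 6.26% were called higher and 4.29% lower. The activity-dependent factor gene npas4a fell by 3.16 ± 0.10 (SE) on the log2 scale, and arntl1b, a clock gene, fell by 0.56 ± 0.09 (SE). The hypoxia factor genes hif1al and epas1a rose by 0.78 ± 0.07 and 0.50 ± 0.10 (SE).

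**Figure D5:**
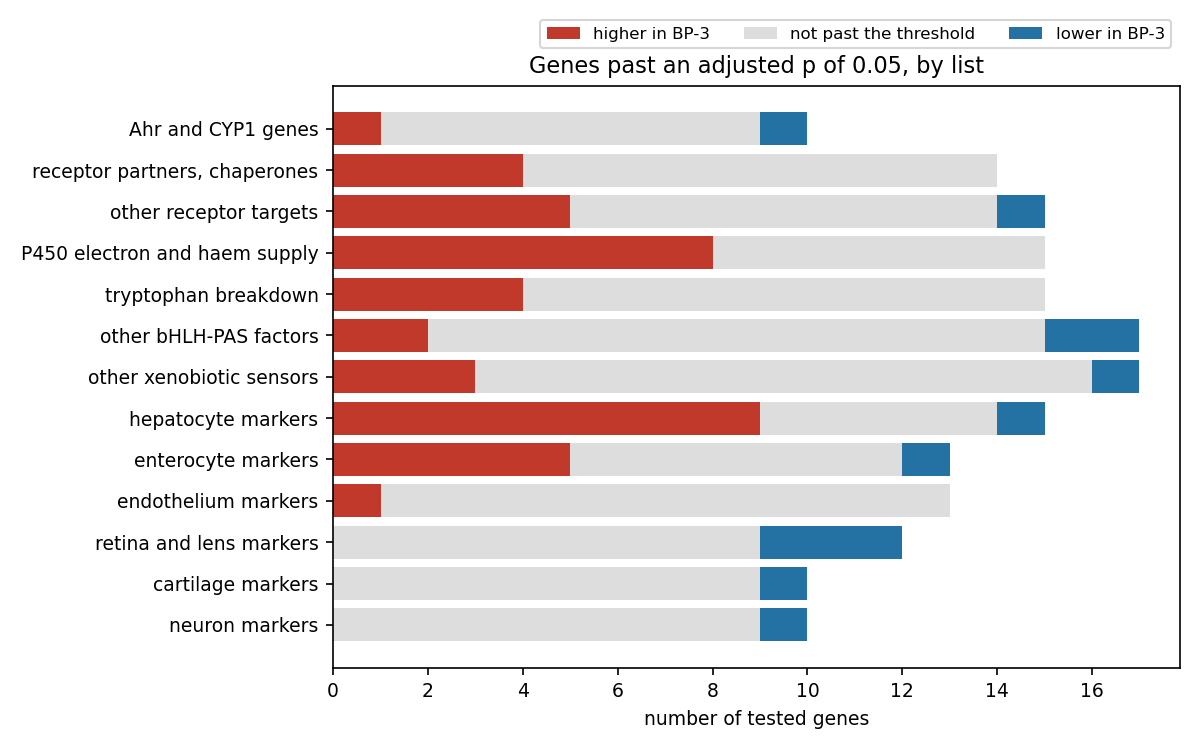
Number of tested genes per list that were higher in BP-3 (red), not past an adjusted p of 0.05 (grey) or lower in BP-3 (blue). The haem and electron supply list, with 8 of 15, and the hepatocyte markers, with 9 of 15, have the longest red bars. Over all tested rows 6.26% were called higher and 4.29% lower. The lists differ in size and were chosen with earlier results of these data known, so their order is not a test.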

How the data were processed

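Each library came with a table of raw counts of reads per gene name, deposited without normalization, judged from whole numbers with differing totals. The sources used here do not name the aligner, counter, annotation or use of strand. The submitters' processing notes name mm9, a mouse build, so no coordinates are given, and overlapping genes cannot be told apart. Reads were paired-end, per the labels' protocols. No sequences were used.

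Groups follow the titles. Nothing says that replicates are separate clutches or pools, so the p-values cover the spread of these libraries, which may be technical. Rows were filtered with filterByExpr (23167 of 32053 kept), scaled by TMM and tested with edgeR 4.0.16 in R 4.3.3 (glmQLFit, glmQLFTest), with Benjamini-Hochberg adjustment over all tested rows. The test was tried on simulated counts first. SE is the log2 coefficient divided by the square root of F. Poisson intervals cover counting error only, and they treat reads as independent, which PCR copies are not. Figures used matplotlib 3.10.9 in Python 3.11.15.

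The members and lists were chosen with earlier results of these data known. Named are all members, up to 4 called genes per list with the smallest adjusted p, genes needed to say what a list holds, the 5 rows most like cyp1a and foxq1a (mean log2 CPM of at least 1, prior count 2, no clone names), and markers. Neighbours were named after values were seen.

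Deviations from the group means of same-numbered BP-3 and WT libraries correlated across rows (Pearson r 0.187, 0.153 and 0.441 for numbers 1 to 3). Numbers 1 and 2 were not told apart, since their crossed pairs correlated about as much (r = 0.196 and 0.175). The labels do not explain the numbers, so whether they pair the samples is not known. The main test therefore had no block, and the block was an alternative. Within groups, libraries differed beyond sampling noise. Alternatives were DESeq2 1.42.0 (test, and size factors), upper-quartile scaling, other filters, limma-voom (limma 3.58.1), the block, each library left out, BP-3 replicate 1 alone, summed rows of one name and, added after seeing the data, both replicate 3 libraries left out.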

Additional observations from a re-analysis of the deposited data

How the results depend on the processing

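The rise of cyp1a and the fall of foxq1a kept their direction in all 16 alternatives, with log2 fold changes of 0.63 to 0.84 and of -1.40 to -1.18. Both passed in the 15 that left at least 2 libraries in each group, with highest adjusted p of 0.0177 for cyp1a and 0.00319 for foxq1a. With BP-3 replicate 1 alone the adjusted p was 0.0126 and 0.0221, but there only the WT libraries give the spread, and the lone library is assumed to vary like them. With the replicate block, rows called were 5026 (21.7%) against 2446 (10.6%), members called 4 against 2, and genes of the other lists called 47 against 30. The other lists hold 14 partners, 15 other targets, 15 electron and haem genes, 15 tryptophan genes, 17 xenobiotic sensors and 17 bHLH-PAS genes. Cell type markers are left out. These lists were chosen with earlier results known, so their counts beside the row shares are not a test. Besides ahr1b and cyp1b1 the block changed no other call among the members. With BP-3 replicate 1 alone, 435 rows and 13 genes of the other lists were called, and with both replicate 3 libraries left out 3894 rows were. Leaving out each library in turn gave 1084 to 2494 rows, 2 to 2 members and 20 to 30 genes of the other lists; the count of rows was 1242 without BP-3 replicate 1, 1084 without BP-3 replicate 2, 1245 without WT replicate 1 and 1287 without WT replicate 2. The cause of these shifts was not tested.

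Signs changed only for 3 genes that never passed. The log2 fold change of ahr2 ran from -0.055 to 0.096 with a library left out and was -0.054 with BP-3 replicate 1 alone. That of ahrra ran from -0.436 to 0.36 with a library left out, was 0.197 with BP-3 replicate 1 alone and 0.079 without both replicate 3 libraries. That of ahrrb ran from -0.33 to 0.161 with a library left out and was 0.213 without both replicate 3 libraries. The filter of 1 CPM in 3 libraries removed ahrra and ahrrb. Other scalings moved the median of all rows to -0.006 at most.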
